A study of Mus musculus with 8 samples.

Results

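Transcription factor genes that divide the embryonic spinal cord from its ventral to its dorsal side were followed in astrocytes sorted from the cord of young mice. They number 10 of the 39179 genes in the deposited count tables and were chosen by name: Nkx2-2, Olig2, Nkx6-1 and Nkx6-2 of the ventral cord, Pax6, Irx3 and Dbx1, which reach into or lie in its intermediate part, and Pax3, Pax7 and Gsx1 of the dorsal cord. The libraries came from Aldh1l1-GFP+ cells, a reporter of astrocytes, collected by flow sorting at postnatal days 12 to 14 from mice of a mixed Swiss-Webster strain. The control group held 4 libraries from cre-negative animals labelled wild-type (control S1, S2, S6 and S7). The other group held 4 libraries from animals with Aldh1l1-cre and both Kir4.1 alleles floxed, a conditional knockout (cKO S3, S4, S5 and S8). Both groups carried the Aldh1l1-GFP reporter, and the labels do not say whether the cre-negative animals carried floxed alleles. Kir4.1, encoded by Kcnj10, is the inwardly rectifying channel with which astrocytes take up potassium. The reporter and the Cre are both driven by Aldh1l1, so the cells collected and the cells recombined were chosen by the activity of the same gene. The series design calls the 4 libraries of a group biological replicates and does not say whether animals were pooled.

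In the neural tube, Sonic hedgehog from the floor plate induces Nkx2-2, Olig2 and Nkx6 genes on the ventral side and represses Pax3, Pax7, Irx3 and Dbx1, while bone morphogenetic proteins act from the roof plate. Pairs of these factors repress each other, which sharpens the borders between progenitor domains, and each domain later gives rise to its own neurons and glia. In spinal white matter, Pax6 and Nkx6-1 are known to mark astrocytes by position, together with the secreted proteins Reelin (Reln) and Slit1. Olig2, Nkx2-2 and Nkx6-2 are also genes of the oligodendrocyte lineage, and Olig2 is found at a lower level in some astrocytes.

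Sequence upstream of the RefSeq start site is shown for the 3 members with the highest level per length that have at least 100 bases there outside any annotated exon. Each run is given 5′ to 3′ on the gene's strand, from RefSeq on GRCm38.p6, and comes from the 250 bases before the start. Capitals mark matches, on either strand, to TAAT (the homeodomain core), AAGTG (the core bound by the Nkx2 class) and CANNTG (the E-box of bHLH factors such as Olig2). They would also mark GACCACCC (bound by Gli factors, the effectors of Sonic hedgehog), which had no match in these runs.
Olig2: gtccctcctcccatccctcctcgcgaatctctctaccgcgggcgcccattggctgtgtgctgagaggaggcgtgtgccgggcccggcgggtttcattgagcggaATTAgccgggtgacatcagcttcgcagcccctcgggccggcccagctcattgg
Nkx2-2: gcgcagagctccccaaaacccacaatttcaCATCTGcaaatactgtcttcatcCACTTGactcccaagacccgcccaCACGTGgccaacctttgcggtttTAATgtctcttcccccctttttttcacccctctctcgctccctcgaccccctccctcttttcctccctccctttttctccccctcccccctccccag
Pax6: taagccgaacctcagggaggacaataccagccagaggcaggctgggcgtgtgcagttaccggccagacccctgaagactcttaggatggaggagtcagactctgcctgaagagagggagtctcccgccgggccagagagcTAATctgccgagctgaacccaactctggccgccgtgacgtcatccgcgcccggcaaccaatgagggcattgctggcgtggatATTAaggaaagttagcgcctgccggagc
The Olig2 run lies at chr16:91225300-91225456 on the plus strand, the Nkx2-2 run at chr2:147186456-147186652 on the minus strand and the Pax6 run at chr2:105668646-105668895 on the plus strand. The RefSeq start of Nkx2-2, 147186402, lies 2 bases from the start of a coding GENCODE transcript (147186404). The gene's outer end at 147194243 belongs to a non-coding transcript, and the run lies in an intron of 2 such transcripts, inside the annotated gene. TAAT occurred once in the run of Olig2, once in that of Nkx2-2 and at 2 places in that of Pax6. Of 32851 mouse promoters, 44.6% held TAAT in a window as long as the Olig2 run (157 bases), 49.8% in one of 197 bases and 54.9% in one of 250 bases. AAGTG and CANNTG matched only in the Nkx2-2 run, with 1 and 3 matches, and the AAGTG match overlaps an E-box. In windows of that length, 33.8% of promoters held AAGTG and 58.6% held CANNTG. GACCACCC was in 0.5% to 0.7% of promoters at these lengths. The matches describe the letters only. Nkx6-1 had no stretch that met the length rule, and 9 of the 10 members have an entry in the promoter table. No entry was found for Pax3.

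Gene reads per library ran from 13892736 in control S2 to 25065686 in cKO S8. Of these reads, 32.5% (cKO S3) to 44.2% (control S6) were of rRNA-like transcripts. Kcnj10, the targeted gene, had 1181 to 2306 CPM (counts scaled to library sizes adjusted by TMM) in the controls and 27.2 to 37.6 CPM in the cKO libraries. Its log2 fold change was -5.74 (SE 0.25, adjusted p = 7.52e-08 in the edgeR quasi-likelihood fit, Benjamini-Hochberg over 14757 genes). At an adjusted p of 0.05, edgeR called 47 genes in all, 0.318% of those tested. The summed CPM of 10 astrocyte markers was 16370 to 23850 in the controls and 18960 to 23400 in the cKO libraries, and all 10 were read. Aldh1l1, the gene whose reporter was sorted, rose in the cKO libraries, from 131 to 152 CPM in the controls to 245 to 350 CPM (log2 fold change 1.014, edgeR adjusted p = 0.0179). Aqp4, the astrocyte water channel, rose too, from 1588 to 2454 CPM in the controls to 3373 to 5268 CPM (log2 fold change 1.10, edgeR adjusted p = 0.0244), and these were the 2 of the 10 called. Their part in the members' values was not tested.

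The libraries held reads of genes of all 3 positions, with the summed ventral members far above the summed dorsal members. Most of the ventral sum was Olig2 and Nkx2-2, which are also genes of the oligodendrocyte lineage. Nkx6-1 alone averaged below the dorsal sum, by a log2 ratio of -0.82 in the controls and -1.24 in the cKO group. Per kilobase of annotated exon (RPKM, computed here from CPM), Olig2 averaged 39.9 ± 8.25 (SD, n = 8), Nkx2-2 11.99 ± 8.81, Pax6 4.05 ± 0.62 and Pax3 3.61 ± 1.12. Nkx6-1 averaged 1.98 ± 0.74 RPKM, Irx3 1.12 ± 0.65, Nkx6-2 0.88 ± 1.17, Pax7 0.28 ± 0.24 and Gsx1 0.11 ± 0.19, and Dbx1 was at 0. Olig2 lay above 97.1% of the tested genes on this scale, Nkx2-2 above 87.2%, Pax6 above 59.6% and Pax3 above 56.1%. Olig2 was the highest member in 8 of 8 libraries, and Nkx2-2 exceeded Pax6 in 7 of 8. Pax6 exceeded Pax3 in 5 of 8, so this pair had no firm order. Between no pair of neighbours in the order were the ranges over the 8 libraries apart. The authors' deposited FPKM, averaged over all columns, gave the same first 4 genes in the same order, at 63.8 for Olig2, 50.5 for Nkx2-2, 34.1 for Pax6 and 8.02 for Pax3. There Nkx6-2 (3.76) stood above Nkx6-1 (2.90), the reverse of the RPKM order. Within the groups the order of the FPKM means differed from that over all columns. In the controls Nkx2-2 (71.6) stood above Olig2 (64.05), and in the cKO group Pax6 (38.8) stood above Nkx2-2 (29.3). The union of Pax6 exons spans 11694 bases, which lowers its RPKM relative to a value per transcript.

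**Figure D1:**
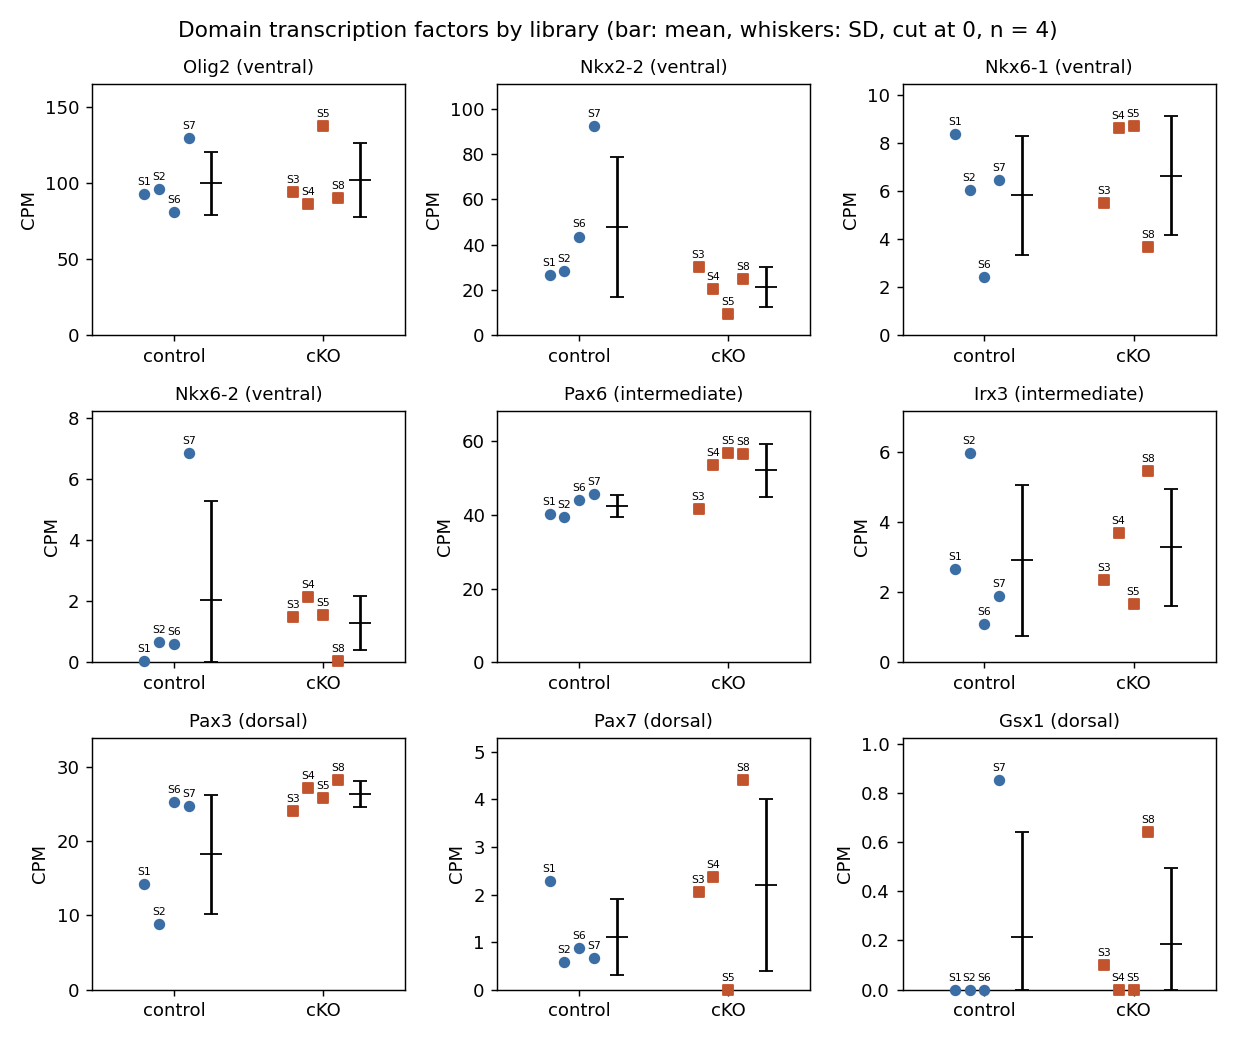
Normalised read counts (CPM, vertical axis, a linear scale that starts at 0 and differs between panels) of the 9 members with any read, in the 4 control and 4 cKO libraries. Each point is a library, the bar is the group mean and the whiskers are 1 SD, cut at 0; the groups overlap in every panel, and Nkx2-2 in control S7 (92.6 CPM) stands above the other libraries.

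None of the 10 members passed the test between control and cKO. The edgeR fit tested 8 of them and called 0, against 0.318% of all genes. At an unadjusted p under 0.05 it gave 1 member, Nkx2-2, of 8, against 9.81% of all genes. DESeq2 and limma-voom also called 0 members and gave the same 1 at an unadjusted p under 0.05. The 8 members with a p from DESeq2 included Gsx1 and not Nkx6-2. The control and cKO libraries overlapped in all 8 tested members, while 6.34% of all tested genes had groups that did not overlap. In the authors' deposited table, where 353 of 12314 genes (2.87%) had an adjusted p under 0.05, the lowest adjusted p of a member was 0.123, for Nkx2-2. The median log2 fold change of the 8 tested members was 0.19, beside -0.017 over all genes tested, with 6 values above 0 and 2 below.

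Nkx2-2, a homeodomain factor of the most ventral progenitors and of oligodendrocyte precursors, had the lowest p of the members. Values are given for control S1, S2, S6, S7 and cKO S3, S4, S5, S8, in this order throughout. It measured 26.8, 28.2, 43.6 and 92.6 CPM in the controls and 30.1, 20.6, 9.40 and 24.7 CPM in the cKO libraries. The 2 lowest controls lie below the highest cKO library, and control S7 is the highest of all 8, so the groups overlap. Its log2 fold change was -1.18 (SE 0.42, 95% interval -2.07 to -0.28, adjusted p = 0.357 by edgeR). Without control S7 it was -0.63 (adjusted p = 0.634 by edgeR). The gene lies at chr2:147177546-147194243 on the minus strand (GENCODE M21, GRCm38), and an exon of the antisense gene Nkx2-2os overlaps its exons. The strand setting of the counting is not given in the sources used here, so how reads of the shared exon sequence were counted is not known.

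Markers of oligodendrocyte precursors (OPC), cells in which Nkx2-2 is active, had their highest sums in the libraries with the highest Nkx2-2. The summed CPM of 7 OPC genes was 503, 369, 842 and 1275 in the controls and 546, 298, 319 and 268 in the cKO libraries. Much of this sum was 1 gene, Gpr17, with a mean of 450 of 747 CPM in the controls and 197 of 358 CPM in the cKO group. Control S7 and control S6 held the highest sums, as they held the highest Nkx2-2. All 7 OPC genes had values below 0 on the log2 fold change scale, with a median of -1.16, and 0 of 7 passed edgeR's threshold, with 4 of 7 at an unadjusted p under 0.05 (4.77% of all genes, lower in cKO). DESeq2 called 2 of the 7, Gpr17 and Neu4, beside 2.49% of all genes, and limma-voom called 0. Pdgfra, the receptor that defines these cells, had 9.17 to 72.0 CPM in the controls and 3.04 to 32.1 CPM in the cKO libraries. Cspg4 had 10.5 to 37.6 and 15.1 to 22.2 CPM. Their log2 fold changes were -1.16 (unadjusted p = 0.102 by edgeR) and -0.20 (unadjusted p = 0.578 by edgeR). The log2 ratio of Nkx2-2 to Sox10, a factor of the whole oligodendrocyte lineage, was -0.21 ± 0.30 (SD, n = 4) in the controls and -0.63 ± 0.79 in the cKO group, with overlapping libraries. The part of OPC in the Nkx2-2 values was not tested, and in such bulk samples fewer cells of a type and less RNA per cell cannot be told apart.

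**Figure D2:**
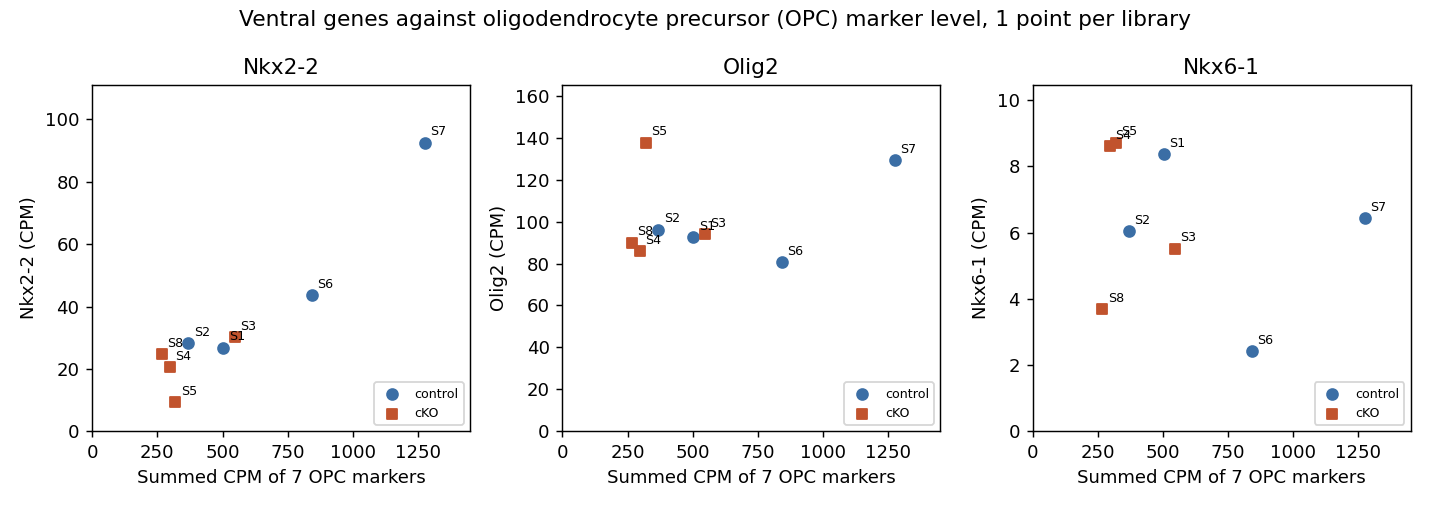
Ventral members (CPM, vertical axis) against the summed CPM of 7 OPC marker genes (horizontal axis) in 8 libraries, 1 point each, coloured by group, with panels for Nkx2-2, Olig2 and Nkx6-1. Gpr17 is the largest single part of that sum. Nkx2-2 is highest in control S7, which also has the highest OPC sum (1275 CPM), whereas Olig2 is highest in cKO S5, whose OPC sum is 319 CPM.

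Olig2, a bHLH factor that specifies motor neurons and oligodendrocytes, had nearly the same mean in both groups, 99.8 ± 20.8 and 101.9 ± 24.1 CPM (SD, n = 4). It measured 92.7, 96.2, 80.8 and 129.5 CPM in the controls and 93.9, 86.0, 137.7 and 90.02 CPM in the cKO libraries. The highest library of each group stands apart from the other 3, and these 6 lie between 80.8 and 96.2 CPM. Its log2 fold change was 0.030 (SE 0.20, 95% interval -0.40 to 0.46, adjusted p = 0.978 by edgeR), and its sign turned under several alternatives. The log2 ratio of Olig2 to Nkx2-2 per length was 1.42 ± 0.65 (SD, n = 4) in the controls and 2.55 ± 1.02 in the cKO group, where cKO S5 reached 4.06. This ratio also overlapped between the groups. Olig2 lies at chr16:91225457-91228677 on the plus strand, with no overlapping gene.

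The Nkx6 genes were low, and neither differed between the groups beyond its spread. Nkx6-1, a homeodomain factor of the ventral cord that is required for motor neuron formation, measured 8.37, 6.04, 2.42 and 6.44 CPM in the controls and 5.52, 8.62, 8.72 and 3.68 CPM in the cKO libraries. Control S6 and cKO S8 were low and the groups overlap over nearly their whole range. Its log2 fold change was 0.19 (SE 0.46, 95% interval -0.80 to 1.17, adjusted p = 0.929 by edgeR). Nkx6-2, a relative of Nkx6-1 expressed in mature oligodendrocytes, measured 0.063, 0.655, 0.604 and 6.87 CPM in the controls and 1.48, 2.13, 1.54 and 0.043 CPM in the cKO libraries. The control mean of 2.05 CPM rests on control S7 alone. The log2 fold change of Nkx6-2 was -0.67 (SE 1.17, 95% interval -3.19 to 1.86, adjusted p = 0.897 by edgeR), and without control S7 it was 1.55. Exons of Nkx6-2 (chr7:139579376-139582797) overlap those of Inpp5a, while Nkx6-1 (chr5:101658139-101664996) overlaps no gene.

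Among the intermediate members, Pax6 had the steadiest level, with a coefficient of variation of 15.4% over the 8 libraries, the lowest of the 8 tested members. Pax6, a paired-box homeodomain factor of progenitors outside the most ventral domain, measured 40.3, 39.6, 44.1 and 45.9 CPM in the controls. In the cKO libraries it measured 41.7, 53.5, 56.9 and 56.7 CPM. Of the 4 cKO libraries, 3 exceed all controls, and cKO S3 lies among the controls. This gave a log2 fold change of 0.30 (SE 0.17, 95% interval -0.077 to 0.67, adjusted p = 0.616 by edgeR). With library totals in place of TMM, which shift the median of all genes to 0.091, Pax6 reached an unadjusted p under 0.05, with adjusted p = 0.443 by edgeR. Without cKO S3 it did so too, with adjusted p = 0.511 by edgeR.

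Irx3, an Iroquois factor whose ventral border faces Olig2, measured 2.66, 5.97, 1.10 and 1.90 CPM in the controls and 2.35, 3.67, 1.65 and 5.44 CPM in the cKO libraries. Libraries of 1 group differed more from each other than the group means did, and the ranges nearly coincide. Irx3 had a log2 fold change of 0.18 (SE 0.63, 95% interval -1.18 to 1.54, adjusted p = 0.954 by edgeR). Exons of the antisense gene Irx3os overlap it. Dbx1, which marks the progenitors between the ventral and the dorsal cord, had no read in any of the 8 libraries. A count of 0 allows up to 3 counts, which is 0.128 to 0.218 CPM in these libraries, for counting error only.

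Pax3 had the highest level of the dorsal members. This paired-box factor of dorsal progenitors and neural crest measured 14.2, 8.88, 25.2 and 24.7 CPM in the controls and 24.1, 27.2, 25.9 and 28.3 CPM in the cKO libraries. Control S1 and S2 were low, whereas control S6 and S7 lay inside the range of the cKO libraries. For Pax3 the log2 fold change was 0.53 (SE 0.31, 95% interval -0.13 to 1.19, adjusted p = 0.615 by edgeR). Without control S2 it was 0.30. It was 0.72 without control S6 (unadjusted p = 0.045 by edgeR) and 0.72 without control S7 (unadjusted p = 0.040 by edgeR). With 1 library left out, the adjusted p from edgeR ran from 0.511 to 0.773. Spread within the controls (8.04 CPM) was larger than within the cKO group (1.79 CPM).

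Pax7, a close relative of Pax3 in the dorsal cord and also a gene of muscle satellite cells, measured 2.28, 0.582, 0.879 and 0.663 CPM in the controls and 2.04, 2.36, 0 and 4.41 CPM in the cKO libraries. It was absent from cKO S5 and highest in cKO S8, and its log2 fold change of 1.001 had an interval of -1.22 to 3.22 (SE 1.03, adjusted p = 0.803 by edgeR). It was 0.42 without cKO S8, 1.63 without control S1 and 0.12 by limma-voom. Of 4 listed muscle genes, Myf5 and Myod1, which define satellite cells and myoblasts, were at 0 in all libraries. Myog had 16 reads in all, in 2 libraries, and Musk had 34, in 6 libraries. The part of muscle cells in the Pax7 values was not tested. Gsx1, a factor of dorsal interneuron progenitors, had 35 reads in all, of which 18 were in control S7 and 15 in cKO S8. It was not tested in the edgeR fit.

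The balance of ventral to dorsal members was on the ventral side in all 8 libraries. The 4 ventral members made up 87.7% ± 2.26 (SD, n = 4) of the members' summed RPKM in the controls and 82.7% ± 3.74 in the cKO group. The 3 dorsal members made up 4.91% ± 1.96 and 7.91% ± 1.69. In log2 terms the ventral sum exceeded the dorsal sum by 4.25 ± 0.62 in the controls, from 3.51 to 5.03. In the cKO libraries it did so by 3.41 ± 0.38, from 2.997 to 3.87, and the groups overlap. On the deposited FPKM the ratio was 4.41 ± 0.48 and 3.22 ± 0.29, and there the groups did not overlap, with a lowest control of 3.896 and a highest cKO value of 3.57. The difference of -0.84 between the group means on the RPKM scale has no test, since it is a score over chosen genes. Olig2 and Nkx2-2 alone held most of the ventral sum, and both are also genes of the oligodendrocyte lineage. With Nkx6-1 as the only ventral gene, its level was below the dorsal sum on average, by a log2 ratio of -0.82 ± 1.26 in the controls and -1.24 ± 0.75 in the cKO group, a difference of -0.42.

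**Figure D3:**
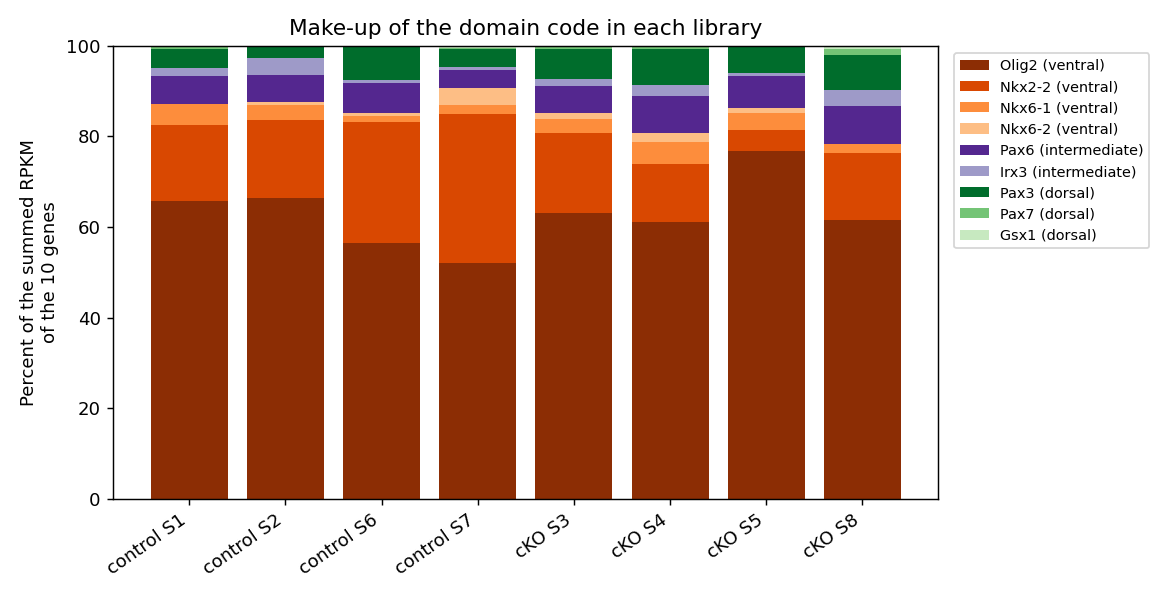
Share of each member in the summed RPKM of the 10 genes (percent, vertical axis from 0 to 100) in each control and cKO library; the colours stand for the genes. Olig2 takes between 52.1% and 76.7%, and Nkx2-2 ranges from 4.61% in cKO S5 to 32.8% in control S7.

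The pair that marks white matter astrocytes by position had overlapping ratios in the groups. The log2 ratio of Pax6 to Nkx6-1, per length, was 1.10 ± 0.83 (SD, n = 4) in the controls and 1.153 ± 0.61 in the cKO group, a difference of 0.051. It lay between 0.37 and 2.29 in single libraries, all above 0. Control S6 (2.29) and cKO S8 (2.05) were the highest, and both had the lowest Nkx6-1 of their group. On the deposited FPKM, the difference was 0.17, at a higher level of 3.52 ± 1.18 and 3.70 ± 0.61.

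Reelin (Reln), a large secreted glycoprotein, had the lowest p of the position genes and did not pass edgeR's test. It measured 138, 141, 207 and 218 CPM in the controls and 85.2, 87.9, 82.3 and 144 CPM in the cKO libraries. Library cKO S8 lies inside the control range, and the other 3 cKO libraries lie below all controls. Reln had a log2 fold change of -0.82 (SE 0.22, 95% interval -1.30 to -0.33, adjusted p = 0.200 by edgeR). DESeq2 called it, with adjusted p = 0.0420, where 384 of 15441 genes (2.49%) were called. Slit1, an axon guidance ligand, measured 1.84, 0.655, 2.64 and 12.3 CPM in the controls and 2.35, 0, 0 and 3.64 CPM in the cKO libraries (log2 fold change -1.54, adjusted p = 0.750 by edgeR, and -0.18 without control S7). Sema3a, a guidance protein of ventral astrocytes, had 2.69 to 7.04 CPM in the controls and 5.64 to 14.6 CPM in the cKO libraries (log2 fold change 0.95, adjusted p = 0.488 by edgeR). The groups of Slit1 and Sema3a overlapped.

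The other genes of the domain code were read in part. Of 26 listed, 18 had reads, 8 were at 0 in all libraries and 13 were tested, and edgeR called 0 of them, with 4 at an unadjusted p under 0.05 (3 higher, 1 lower) against 9.81% of all genes. DESeq2 called 1 of them, beside 2.49% of all genes, and limma-voom 0. Their median log2 fold change was 0.29, beside -0.017 over all genes tested. Olig1, the partner of Olig2 in the oligodendrocyte lineage, had a mean of 157 RPKM, and Dbx2 and Irx1, factors of the intermediate cord, had 18.3 and 6.09 RPKM. Dbx2 was thus read at a clear level where its relative Dbx1 was at 0. Of the dorsal genes, Zic1, a zinc finger factor of the dorsal cord, had the highest mean level (5.74 RPKM), followed by Msx1 (2.89 RPKM). The log2 fold change of these 5 genes lay between -0.25 for Zic1 and 0.98 for Msx1, with adjusted p from 0.395 to 0.941 by edgeR.

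Zic2, Irx5 and Gbx2 are named because their groups did not overlap, a choice made after their values were seen. Zic2, a relative of Zic1, measured 1.014, 3.20, 1.32 and 0.426 CPM in the controls and 11.5, 5.72, 7.01 and 3.77 CPM in the cKO libraries. All 4 cKO libraries were above the controls (log2 fold change 2.24, adjusted p = 0.210 by edgeR, 0.0135 by DESeq2). Irx5, a relative of Irx3, was also higher in all 4 cKO libraries, at 10.01 to 23.6 CPM against 3.17 to 9.75 CPM (log2 fold change 1.27, adjusted p = 0.310 by edgeR). Gbx2 was lower in all 4, at 0 to 2.27 CPM against 2.98 to 8.72 CPM (log2 fold change -2.17, adjusted p = 0.422 by edgeR). Thus 3 of 13 genes had groups apart, beside 6.34% of all genes, and 2 of 13 were higher in all 4 cKO libraries, beside 3.39% of all genes.

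**Figure D4:**
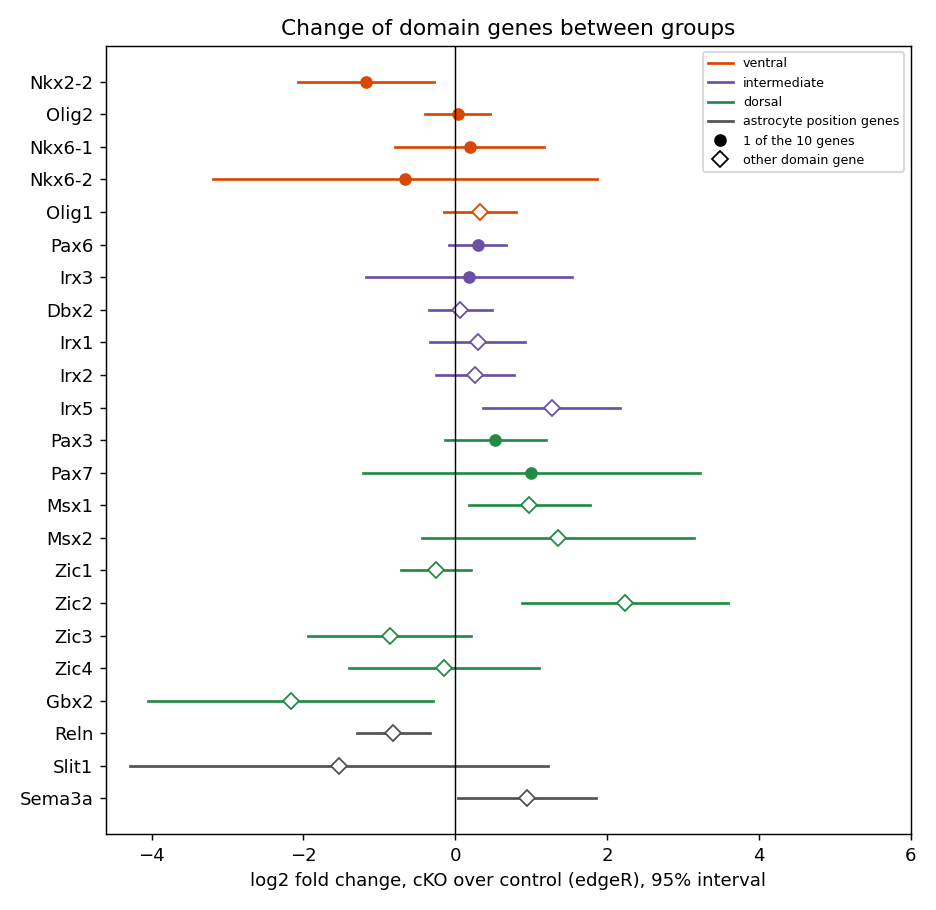
Log2 fold change, cKO over control, from the edgeR fit (horizontal axis) with its 95% interval for 8 tested members (filled circles) and 15 other domain and position genes (open diamonds), coloured by position. Nkx2-2 is the one member whose interval does not include 0 (-2.07 to -0.28), and no gene shown passed the adjusted threshold.

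Transcription factors of spinal neurons were nearly unread. Of 24 listed, 19 had at least 1 read and none had enough to be tested by edgeR. Lbx1, a dorsal interneuron factor, had the highest mean at 0.132 RPKM, with Pax2 at 0.0896 and Gata2 at 0.0822 RPKM. The summed CPM of 10 neuron markers was 50.4 to 85.3 in the controls and 33.0 to 54.4 in the cKO libraries, and Snap25 was 21.9 to 39.98 and 13.2 to 21.03 CPM. Of these 10, edgeR tested 8 and called 0, with 2 at an unadjusted p under 0.05, both lower in cKO, beside 4.77% of all genes. DESeq2 called 1 (Gad2), beside 2.49% of all genes, and limma-voom 0. Oligodendrocyte markers (10 genes) summed to 1483 to 3042 CPM and 1010 to 2388 CPM, and all 10 log2 fold changes were below 0 with a median of -0.46 and 0 past the threshold by edgeR. At an unadjusted p under 0.05 edgeR gave 3 of the 10, all lower in cKO, beside 4.77% of all genes. DESeq2 called 1 of them, Mal, beside 2.49% of all genes, and limma-voom 0. Ependymal markers (5 genes) summed to 7.54 to 31.4 and 8.99 to 30.3 CPM, with Foxj1 at 4.69 to 22.7 and 7.02 to 18.6 CPM. Microglial markers (6 genes) summed to 25.3 to 42.7 and 25.1 to 47.5 CPM. Fibroblast markers (4 genes) summed to 109 to 477 and 75.8 to 132 CPM, with Col1a1 at 20.5 to 129.7 and 3.14 to 32.3 CPM. All 4 had log2 fold changes below 0, with a median of -1.91. Here edgeR called 0, with 2 at an unadjusted p under 0.05, beside 4.77% of all genes. DESeq2 called 1 (Col1a2), beside 2.49% of all genes, and limma-voom 0. Endothelial markers (5 genes) summed to 22.6 to 49.6 and 13.6 to 38.7 CPM. All 5 had log2 fold changes below 0, with a median of -0.76. For these edgeR called 0, with 1 at an unadjusted p under 0.05 beside 4.77% of all genes, lower in cKO. Mural markers (5 genes) summed to 27.4 to 46.8 and 33.3 to 37.1 CPM. Schwann cell markers (4 genes) stayed at or below 2.27 CPM in every library. The part of these cell types in the members' levels was not tested.

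Across the 8 libraries, each member was set beside 78 other listed genes by Pearson's r of log2 CPM. This is a description over libraries that differ in depth and in their cell type marker sums, whose part in r was not tested. The genes named for each member are the 3 with the highest r of the 78, so a high r is partly set by that choice. The genes most like Nkx2-2 were Slit1 (r = 0.859), Neu4 of OPC (0.850) and Gbx2 (0.846). For Nkx6-1 they were the astrocyte genes Aldoc (0.891) and Sox9 (0.805), then Msx1 (0.663). For Pax6 they were Olig1 (0.841), Aqp4 (0.735) and Pax3 (0.704), and for Pax3 they were Rgs5 (0.819), Gfap (0.752) and Slc1a3 (0.723). For Olig2, Syt1 (0.862) came before Cnp (0.650) and Olig1 (0.610), with a Spearman's rho of 0.524, 0.333 and 0.333. Irx3 was nearest to Irx1 (0.670), P2ry12 (0.636) and Irx2 (0.636), and Pax7 to Csf1r (0.771), Irx2 (0.760) and Sema3a (0.681). Nkx6-2 was nearest to Tubb3 (0.690), Tnr (0.670) and Myrf (0.664). Ranks gave a lower value for some other pairs too, with a Spearman's rho of 0.5 for Pax3 with Rgs5, 0.548 for Pax3 with Gfap and 0.595 for Pax7 with Csf1r. For others rho was above r, as for Nkx2-2 with Neu4 (0.905) and Pax6 with Pax3 (0.905).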

How the data were processed

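The authors deposited whole-number counts per gene and library; per the submitters' processing notes the tools were FastQC 0.11.4, TopHat2 2.0.11, Bowtie2 2.2.3, HTSeq 0.6.1p1, DESeq2 1.14.1, Cuffnorm and Cufflinks 2.2.1, with GRCm38. The annotation release and strand setting are not given in the sources used here. Summary lines that name no gene held 56.4% to 61.7% of reads and were left out. The deposited FPKM columns were used by group only, since only 3 of 8 matched the same-named count table, while all 8 matched their own group. The authors' deposited DESeq2 table holds a signal per group (means of scaled counts), a log2 fold change, its standard error and Wald statistic (scores) and p-values with adjustment; 27 of its symbols had become dates, so genes were matched by identifier.

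Counts were tested with edgeR 4.0.16 in R 4.3.3 (quasi-likelihood, TMM, filterByExpr, no covariate), with Benjamini-Hochberg adjustment over all 14757 genes tested, and tested on simulated data first. A log2 fold change is cKO over control. CPM use TMM-adjusted library sizes, and RPKM divide CPM by union exon length in kilobases (GENCODE M21, GRCm38). Alternatives were DESeq2 1.42.0, limma 3.58.1 (voom, and log2(FPKM + 1) or log2(FPKM + 0.1) where at least 4 columns reached 0.1), 2 other scalings, 2 other count filters, no rRNA-like transcripts and each library left out. Replicate pairs differed well beyond counting noise (lowest chi-square per degree of freedom 19.97), so none was merged. Named were Kcnj10, the members, Reln, Slit1, Sema3a, defining markers, domain and neuron factors past the threshold or among the 3 highest per group of lists, and the 3 genes most like each member with at least 1 CPM. A gene that this rule names is not reported here. Members and lists were chosen with earlier results of these data known. Floors cover counting error only. The intervals of the log2 fold changes come from the edgeR fit, which also takes in the spread between libraries of a group.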

Additional observations from a re-analysis of the deposited data

Results flagged for a closer look

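In groups of 4 libraries, the highest or lowest value was set apart where its gap to the nearest other value exceeded Dixon's 95% critical value as a share of the group's range. For normally distributed values chance gives about 1 in 20 groups, which is 2.7 of the 54 examined, and 8 were found. That rate does not hold for counts near 0. Where the other libraries of a group are at 0, any read sets the share to 1, as for Lbx1 and for Gsx1 in control S7. The 8 found therefore cannot show an excess over chance. Olig2 in cKO S5 was 137.7 CPM, with the other 3 cKO libraries at 86.0 to 93.9 CPM. Nkx6-2 in control S7 was 6.87 CPM, with the other controls at 0.0634 to 0.655 CPM. Gsx1 in control S7 was 0.853 CPM, with the other controls at 0, and in cKO S8 it was 0.642 CPM, with the others at 0 to 0.102 CPM. Slit1 in control S7 was 12.3 CPM, with the other controls at 0.655 to 2.64 CPM. Reln in cKO S8 was 144.3 CPM, with the other cKO libraries at 82.3 to 87.9 CPM. Lbx1 in cKO S3 was 0.0511 CPM, a single read, with the other cKO libraries at 0. The summed neuron markers in cKO S5 were 54.4 CPM, with the others at 33.0 to 35.5 CPM. Control S7 holds 3 of these values and also the highest Nkx2-2 and the highest OPC sum.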

How the results depend on the processing

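No member passed the threshold under any of the 17 alternatives, and Kcnj10 stayed called in each, from -6.12 to -5.61. The count of all genes past the threshold, 47 by edgeR, was 87 with no filter, 84 with at least 10 counts in every library, 384 by DESeq2, 12 on log2(FPKM + 1) and 11 on log2(FPKM + 0.1). With 1 library left out it ran from 4 (without cKO S4) to 45; it was 14 without control S2, 16 without control S6, 24 without cKO S5, 28 without cKO S8 and 30 without control S1. The sign of Olig2 turned to -0.0098 on log2(FPKM + 1), -0.0099 on log2(FPKM + 0.1), -0.0053 without control S1, -0.059 without control S6 and -0.14 without cKO S5, with up to 0.19 without the others. Nkx6-1 turned to -0.068 without control S6, Irx3 to -0.091 without control S6 and -0.18 without cKO S8, and Nkx6-2 to 1.55 without control S7. Over the libraries left out, Nkx6-1 reached 0.42, Irx3 0.80 and Nkx6-2 -1.07. The cause was not tested beyond the libraries left out. The Pax6 to Nkx6-1 difference ran from -0.25 to 0.45 with 1 library left out and from 0.051 to 0.17 otherwise. The ventral to dorsal difference ran from -1.09 to -0.58 with 1 library left out and from -1.18 (FPKM) to -0.42 (Nkx6-1 alone) otherwise. Under at least 10 counts in every library Nkx6-2 and Pax7 were not tested. DESeq2 gave Nkx6-2 no p at all, and it gave Gsx1 an unadjusted p of 0.93 but no adjusted p. No paired analysis was possible because the labels give no pairing of control and cKO libraries. The low reads of Gsx1, Nkx6-2 and Pax7 limit what these libraries can show of them.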
